A study of Oryza sativa with 2 samples.

Results

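The AP2 genes described here are the targets that the deposited table of rice mesocotyl degradome sites pairs with miR172. They were chosen as the lines whose small RNA name contains miR172 and whose gene symbol is AP2, and no further line was added by a description naming AP2. This gave 5 genes of 9660 with a listed pair, in 76 small RNA and transcript pairs on 19 transcript versions. All 5 genes had degradome reads in at least 1 library, in 64 of the 76 pairs, and 12 pairs had none. The mesocotyl is the organ that carries a grass seedling's shoot upward through the soil. The seedlings were of the indica rice cultivar P25 and had been raised on Murashige and Skoog medium. 1 degradome library (D_5d, dark) came from mesocotyls after 5 days in the dark, and 1 (L_1h, light) from mesocotyls that had received 1 h of light after the same 5 days. The library totals inferred from the deposited values were 15422946 reads in the dark and 34051452 in the light.

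A degradome library collects the 5′ ends of uncapped RNA fragments, so a transcript cut by a small RNA leaves reads that begin at the cut. miR172 is a conserved plant microRNA family that represses AP2-type transcription factors, which carry paired AP2 DNA-binding domains and in many plants hold back the change to flowering and shape floral organs. In the known age pathway miR156 represses SPL factors, and SPL factors in turn activate miR172 genes. In Arabidopsis miR172 acts on AP2 both by cutting its transcript and by blocking its translation, and a degradome sees only the cut. The number of fragments depends on how much transcript is present as well as on how often it is cut, and these cannot be told apart here.

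The 4 small RNA forms that were paired with AP2 are shown because the position of the cut depends on where each one begins. Capitals mark the seed, bases 2 to 8, and T stands for U as in the deposited table.
osa-miR172a: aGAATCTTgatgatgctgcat
mtr-miR172d-3p_R+1: aGAATCTTgatgatgctgcag
osa-miR172c: tGAATCTTgatgatgctgcac
osa-miR172b_L-1: gAATCTTGatgatgctgcat

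The first 3 forms have 21 bases and share the seed GAATCTT. Counted from 1 at the 5′ end of osa-miR172a, mtr-miR172d-3p_R+1 differs by T21G, and osa-miR172c by A1T and T21C. The form osa-miR172b_L-1 has 20 bases and is osa-miR172a without its first base, so its seed is moved by 1 base. Each of the 4 forms was paired with all 19 AP2 transcript versions. The cut faced base 10 of the paired form in every AP2 pair with reads, so the 20-base form predicts a cut 1 base to the 5′ side of the position that the 21-base forms share. The table lists only such predicted positions, and reads elsewhere on the transcripts are not analysed here.

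The pairing differed between the genes. The alignment score is a mispairing penalty in which lower is closer, and it ran from 0 to 4 in the table. With mtr-miR172d-3p_R+1 the score was 1 for ZS05g0027300, ZS07g0173000 and ZS03g0765600, 2 for ZS06g0565200 and 3 for ZS04g0775700. With osa-miR172a, which differs from that form in its last base alone, the score of each gene was 1 point higher. With osa-miR172c and osa-miR172b_L-1 the scores were 3 and 2 for every copy but ZS04g0775700. ZS04g0775700 was the least closely paired copy, with a score of 3 or 4 for every form. The genes were chosen by symbol and not by score, and all 32 miR172 pairs with a score of at most 2 were AP2 pairs. The lowest score of a miR172 pair outside AP2 was 2.5.

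The copies gave very unequal numbers of fragments. ZS05g0027300 was the most abundant, with 64 raw reads in the dark and 427 in the light. TPB, the authors' scale of reads relative to the library total, put it at 4150 TPB in the dark (95% exact Poisson interval 3196 to 5299) and 12540 in the light (11378 to 13788). By TPB it ranked 14 among the 413 genes with dark reads and 8 among the 665 with light reads. Its light library value was higher, and the counting intervals do not overlap.

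ZS07g0173000 had 16 and 42 reads, at 1037 TPB in the dark (593 to 1685) and 1233 in the light (889 to 1667). ZS04g0775700 had 12 and 53 reads, at 778 TPB in the dark (402 to 1359) and 1556 in the light (1166 to 2036). In the dark library these 2 copies stood next to each other in the order of levels, with intervals that overlap, and the same held in the light library, where their order was the other way round.

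ZS03g0765600 had 2 and 18 reads, at 130 TPB in the dark and 529 in the light (313 to 835). ZS06g0565200 had 1 dark read and no light read, and in the light library a count of 0 allows up to 88.1 TPB, a floor of 3 reads. The dark values of both genes lay under the corresponding floor of 195 TPB, and no fold is given for ZS06g0565200. Intervals and floors cover counting error only, because each condition had 1 library and no spread between libraries could be measured. PCR copies of 1 molecule can enter as several reads, so even the counting error can be larger than the intervals allow.

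**Figure D1:**
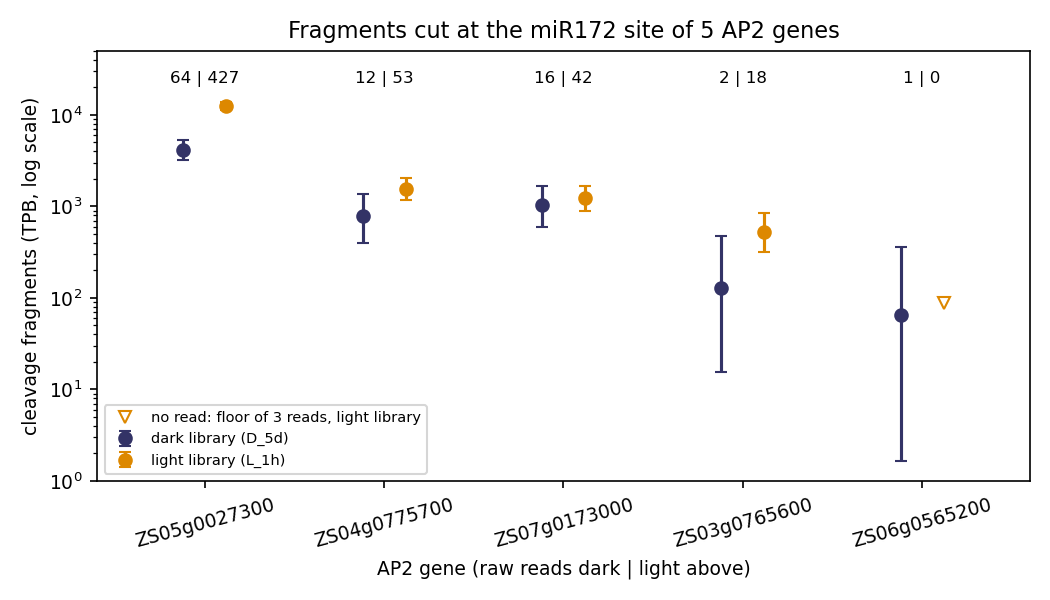
Cleavage fragments of each AP2 gene in TPB (log axis) in the dark (blue) and light (orange) libraries, with exact Poisson 95% intervals of the reads and raw reads printed above. ZS05g0027300 stands at 4150 and 12540 TPB, above every other copy in both libraries. The open triangle marks the floor of 3 reads where ZS06g0565200 had no light read.

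None of these reads was shared between copies in the authors' counting. The authors divide a read by the number of places it matches, and that number was 1 for ZS05g0027300 and ZS07g0173000, 4 for ZS03g0765600, 6 for ZS04g0775700 and 7 for ZS06g0565200. These are the numbers of transcript versions listed for each gene, and all versions of a gene carried the same raw reads. The 26 sites, a site being 1 position on 1 transcript version, are therefore 7 separate positions in 5 genes.

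In ZS05g0027300 nearly all reads at the listed positions began at the same base. On the transcript ZS05t0027300-01 the small RNAs pair with bases 1412 to 1432. The cut that the 21-base forms predict is at position 1423, which had 61 dark and 407 light reads. Position 1422, which the 20-base form predicts, had 3 and 20 reads. The share of the reads of both positions that fell on 1423 was 95.3% in the dark (exact interval 86.9 to 99.0) and 95.3% in the light (92.9 to 97.1). The split of the cut was thus alike in the libraries, within wide limits in the dark.

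In the other copies too, most or all reads at the listed positions lay at that of the 21-base forms. In ZS04g0775700, for example at position 1975 of ZS04t0775700-01, this position had 10 and 53 reads, and the base before it had 2 dark reads and no light read. The share at the main position was 83.3% in the dark (51.6 to 97.9) and 100% in the light (93.3 to 100). These intervals overlap, which does not show that the shares were equal, and the difference was not tested. The listed reads of ZS07g0173000 all lay at position 1207 of ZS07t0173000-01. Those of ZS03g0765600 lay at a single position of each version, such as 1779 of ZS03t0765600-01. The single read of ZS06g0565200 lay at the same predicted position, 1610 on ZS06t0565200-01. The 12 pairs without reads were all pairs of the 20-base form, in ZS03g0765600, ZS06g0565200 and ZS07g0173000.

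**Figure D2:**
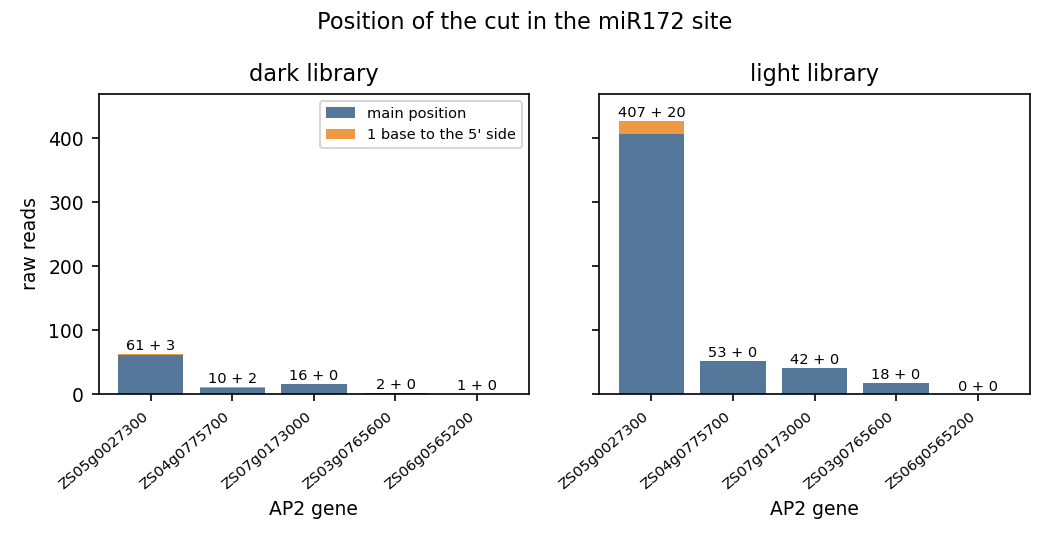
Raw reads (y axis) of each AP2 gene at the position that the 21-base forms predict (blue) and 1 base to the 5′ side (orange), in the dark (left) and light (right) libraries. Position 1423 of ZS05g0027300 holds 407 of 427 reads in the light library, and orange appears only for ZS05g0027300 and, in the dark library, ZS04g0775700.

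How far a cut stands out on its own transcript is given by the authors' category. By common usage category 0 is the single highest position of the transcript, category 2 lies above the median but below the highest, and category 4 is a position with 1 read. ZS05g0027300 and ZS07g0173000 were in category 0 in both libraries, 2 of the 41 genes of the whole table that were. ZS03g0765600 was in category 2 on its 2 dark reads and in category 0 on its 18 light reads. ZS04g0775700 was in category 2 in both libraries, so its 53 light reads were not the highest position of the transcript. ZS06g0565200 was in category 4.

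The authors' deposited p-values of the cuts differed by small RNA form. For ZS05g0027300 at position 1423 and for ZS07g0173000 they ran from 0.0169 to 0.0297 in the dark and from 0.0194 to 0.0341 in the light. For ZS03g0765600 the authors' deposited p-values were 0.773 to 0.928 in the dark and 0.0194 to 0.0341 in the light. For ZS04g0775700 at its main position they were 0.703 to 0.973 and 0.887 to 0.998. For the single dark read of ZS06g0565200 the authors' deposited p-values were 0.843 to 0.989.

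In the light library the AP2 fragments together were a larger part of the fragments at listed sites. The 5 genes held 1.73% of the TPB at all listed sites in the dark and 3.24% in the light, shares that do not depend on how the libraries are scaled to each other. Their summed reads were 95 and 540, a light over dark ratio of 2.57 in TPB (95% exact counting interval 2.07 to 3.24). Since each condition had a single library, the difference could not be checked against replicates and was not tested, and the interval compares these libraries only. Most of the difference was in 1 gene. Without ZS05g0027300 the share was 0.565% and 0.678%, and the ratio of the other 4 genes was 1.65 (1.10 to 2.54). With the sum over sites found in both libraries taken as equal, that ratio was 1.22 (0.812 to 1.88), an interval that includes 1.

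The separate genes were called where the ratio was at least 2-fold, up or down, and its interval excluded 1. ZS05g0027300 was called higher in the light library at 3.02 (2.32 to 3.99). ZS04g0775700 was called higher at 2.0 (1.06 to 4.11), on the edge of the threshold, and at its main position alone the ratio was 2.40 (1.21 to 5.29). That position was in category 2 in both libraries, and the authors' deposited p-values of the cut there ran from 0.703 to 0.998. ZS07g0173000 stood at 1.19 (0.655 to 2.27) and was not called. ZS03g0765600 stood at 4.08 (0.976 to 36.2) and was not called on the authors' scale, with 2 dark reads. No AP2 gene was called lower.

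Against this count of 2 of 5 genes, 3.28% of all 823 genes with reads were called higher and 2.31% lower. That background is mostly of genes with few reads, the median gene having 1 dark and 2 light reads against 12 and 42 for the AP2 genes. Among the 85 genes with at least 20 raw reads in all, 20% were called higher and 5.88% lower, and 2 of the 4 AP2 genes of that depth were called higher. Some genes of this background had identical reads and TPB and still entered separately. Examples are the Rf1 genes ZS10g0388800 and ZS10g0391000, each with 20 dark and 39 light reads. Of sites, 7 of 26 AP2 sites were called higher and none lower, against 2.52% and 2.37% of all 2064 sites. These 7 were position 1423 of ZS05g0027300 and 6 versions of the same position of ZS04g0775700. With the sum over sites found in both libraries taken as equal, 1 AP2 site was called higher and none lower, against 1.07% and 5.14% of all sites. With their median ratio taken as equal, 12 were called higher and none lower, against 3.34% and 1.89%. The median ratio, taken on the log scale, of the 4 AP2 genes with reads in both libraries was 2.46, with all 4 above 1, while it was 0.883 over all 255 such genes and 0.982 over the 83 with at least 20 reads. Of the 4, ZS07g0173000 and ZS03g0765600 had intervals that included 1 on the authors' scale, the latter with 2 dark reads.

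How the libraries are scaled bears on these values. The 692 sites found in both libraries count each transcript version separately, so they are not 692 separate positions. Reads that versions or genes share enter their median repeatedly. Taking the median ratio over the 692 sites found in both libraries as equal moved ZS05g0027300 to 3.42 (2.63 to 4.52) and ZS04g0775700 to 2.26 (1.19 to 4.66). Under this scaling ZS03g0765600 was called higher too, at 4.62 (1.11 to 41.0), and 3.52% of all genes were called higher. Taking the sum over the same sites as equal left ZS05g0027300 called at 2.23 (1.71 to 2.95), while ZS04g0775700 was no longer called, at 1.48 (0.778 to 3.03). ZS07g0173000 then lay on the other side of 1, at 0.877 (0.483 to 1.67), and 1.46% of all genes were called higher. ZS05g0027300 was the single AP2 gene called under all 3 scalings.

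**Figure D3:**
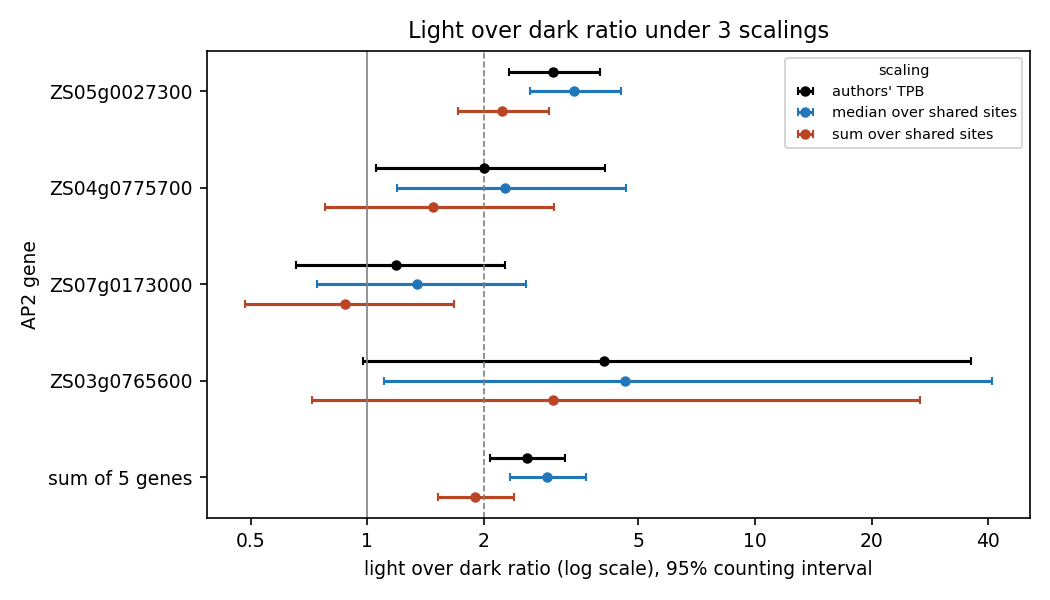
Light over dark ratio (log axis) of the 4 AP2 genes with reads in both libraries and of the sum of 5 genes, with 95% counting intervals, under the authors' TPB (black), the median over shared sites (blue) and the sum over shared sites (red). The solid line marks 1 and the dashed line 2. The ratio of ZS05g0027300 stays above 2 under all 3, though its interval under the sum over shared sites (1.71 to 2.95) crosses 2. The intervals of ZS07g0173000 lie across 1.

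Whether the copies differed from each other can be asked without any scaling, from the ratio of their light over dark ratios. This comparison was added after the data were seen. The ratio of ZS05g0027300 was 2.54 times that of ZS07g0173000 (exact conditional 95% interval 1.25 to 4.94). Of the 6 pairs among the 4 genes with reads in both libraries it was the single pair whose interval excluded 1, and widened for 6 pairs the interval was 0.986 to 6.07, which includes 1. ZS05g0027300 against ZS04g0775700 stood at 1.51 (0.696 to 3.06), and ZS04g0775700 against ZS07g0173000 at 1.68 (0.662 to 4.35). ZS05g0027300 and ZS07g0173000 had the same alignment score with each of the 4 forms. Within the family ZS05g0027300 took 67.4% of AP2 reads in the dark (57.0 to 76.6) and 79.1% in the light (75.4 to 82.4), and ZS07g0173000 took 16.8% (9.94 to 25.9) and 7.78% (5.66 to 10.4). For each gene the intervals of the libraries overlap, which does not show that the shares were equal. The shares of the libraries were not tested against each other.

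**Figure D4:**
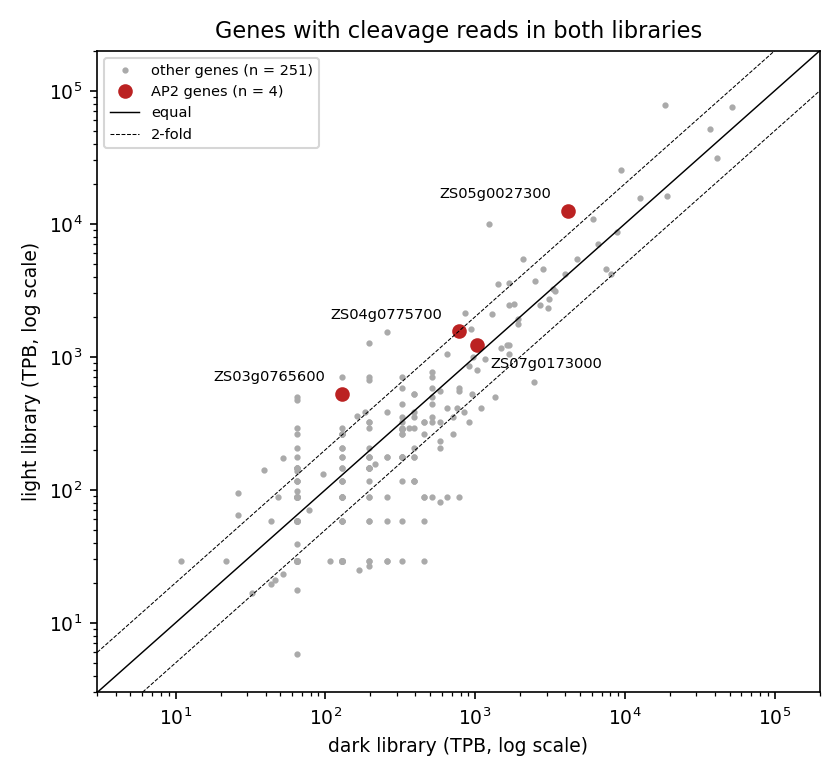
Light against dark TPB (log axes) of the 255 genes with reads in both libraries, with the 4 AP2 genes in red, equal values on the solid line and 2-fold on the dashed lines. ZS05g0027300 lies above the 2-fold line among the most abundant genes, ZS04g0775700 on it, and ZS07g0173000 near equality.

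Genes outside AP2 were ordered by how near their ratio lay to that of ZS05g0027300. The AP2 genes were left out and no miR172 pair outside AP2 reached category 0. The choice of category 0 genes thus left only cuts of other small RNAs in that category. Among 36 other genes in category 0 in both libraries with at least 20 reads in all, the nearest on the log2 scale was ARF10, an auxin response factor gene, at a distance of 0.18. NAC021 (ZS12g0491700), of the NAC transcription factor class, followed at 0.21, and GRF5, a growth-regulating factor gene, at 0.29. The likeness rests on 2 libraries.

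The SPL genes paired with miR156, the step before miR172 in the age pathway, had reads in 8 of 9 cases, with none called higher and 1, SPL19, called lower. The median SPL ratio, also on the log scale, was 0.922, and 3 genes lay above 1 and 5 under it. The most deeply read, SPL16, stood at 1.24 (1.05 to 1.46) on 196 and 535 reads, and SPL12 at 0.618 (0.483 to 0.794) on 115 and 157. The SPL values take in all listed sites of each gene and not those of miR156 alone, while the AP2 reads all lay at miR172 sites. The lists were not tested against each other.

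Outside AP2, at most 20 reads per gene lay at the positions predicted for miR172 forms in either library. The table pairs 71 other genes with 6 miR172 forms, of which 2 (osa-miR172d-5p_R+1 and osa-MIR172c-p5) come from the other arm of the precursor by their names and pair with no AP2 transcript. Reads were found in 11 of the 71 genes, in 41 of 219 pairs, against 64 of 76 AP2 pairs. Over the whole table, reads were found in 823 of 9660 genes and 3262 of 25653 pairs. None of the miR172 pairs outside AP2 reached category 0 in either library, and none of the 11 genes was called in either direction. The most read in the light library, by 1 read, was ZS09g0240400, with the symbol EBS, at 5 and 20 reads and a ratio of 1.81 (0.660 to 6.18). It has the same pair of predicted positions 1 base apart as ZS05g0027300. Of its light reads 11 of 20 lay at the position of the 21-base forms, 55.0% (31.5 to 76.9), against 95.3% (92.9 to 97.1) in ZS05g0027300. Of its dark reads 4 of 5 did, 80% (28.4 to 99.5), an interval that overlaps the dark one of ZS05g0027300. The shares of the 2 genes were not tested against each other.

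Os02g0224100 (ZS02g0133900) had 7 and 19 reads at a site of osa-miR172d-5p_R+1, with a ratio of 1.23 (0.495 to 3.46). ZS08g0196800, described as an ADP-ribosylation factor, a small GTPase unrelated to the auxin response factors, had 0 and 6 reads at a site of osa-MIR172c-p5. The 8 remaining genes had at most 2 reads in either library. These were ZS04g0786500, CPL4, UGD5, FRS4, ZS12g0504100, ZS03g0319200, CDC48C and SCPL19.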

How the data were processed

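Raw read counts are whole numbers of degradome reads starting at a cleavage position, as the authors deposited them. Normalized reads and TPB are a signal, per the file headers: the deposited values show raw reads divided by matching places, then times 1 constant per library, whose inverse gave the library totals. The authors also deposited p-values, a log2 fold change of dark over light, a category score and an alignment score. For the aligner, target finder and build: not given in the sources used here. Headers saying D_1h were read as the dark library, because the TPB column headed D_5d is those reads times 1 constant. An empty line gave no value, and the auxin and cell wall sheets, without miR172 or AP2, were not used.

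Pairs were collapsed to sites, TPB was summed over a gene's sites, and raw reads within the most read version. Ratios have exact Clopper-Pearson intervals of raw reads scaled to TPB (Python 3.11.15, scipy 1.17.1), computed for all genes and tested on simulated data. The authors' deposited Fisher p-values between libraries were not used: the table gives 0.000757 for ZS06g0565200, with 1 read against none. Members and lists were chosen with earlier results of these data known. Named are all AP2 genes, every other miR172 gene with reads, the 2 most read SPL genes, the 3 genes nearest in ratio to the most read AP2 gene and, after its values were seen, SPL19. Alternatives were scaling, raw reads, a single position, 1.5-fold, category 0 only, alignment score and a read minimum.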

Additional observations from a re-analysis of the deposited data

How the results depend on the processing

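No paired analysis was possible because each condition has 1 library. ZS05g0027300 was called higher under all 6 alternatives, from 2.23 with the sum over shared sites to 3.42 with their median. Of these, the scalings alone moved its ratio. The 1.5-fold threshold is looser than 2-fold, and raw reads, a single position and category 0 sites all gave 3.02 again. ZS03g0765600, ZS04g0775700 and ZS07g0173000 were above 1 under their alternatives, except ZS07g0173000 at 0.877 with the sum. The number of AP2 genes called higher fell from 2 to 1 with the sum, and to 1 with category 0 sites only, which leave out ZS04g0775700 by construction. The sum of 5 genes stood at 1.90 (1.52 to 2.39) with the sum over shared sites, no longer 2-fold, and at 1.65 without ZS05g0027300, both alternatives added after the data were seen. Sites called higher numbered 12 with the median, where 4 versions of ZS03g0765600 joined and the position 1 base before the main cut of ZS05g0027300, and 1 with the sum, against 7. With the sum the calls over all genes were 12 higher and 44 lower, against 27 and 19, and over all sites 22 and 106, against 52 and 49; with the median they were 69 and 39 over sites. An alignment score of at most 2 kept 20 pairs and 14 sites with reads, of 64 and 26, and at least 3 reads in either library kept 37 and 13. The cause of the difference between scalings was not tested. Depth limits ZS03g0765600 and ZS06g0565200 most, with 2 and 1 dark reads.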
